A study of Mus musculus with 7 samples.

Results

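Neuropeptide genes encode secreted precursor proteins, and 9 of them were followed here across neurons, glia and precursors of the mouse forebrain: Npy, Sst, Vip, Cck, Penk, Tac1, Pnoc, Grp and Pdyn. They were taken by symbol, and each symbol named exactly 1 of the 31053 genes in the matrices. All are protein-coding genes and lie apart on mm10: Npy (chr6:49822710-49829507), Sst (chr16:23889573-23890958), Vip (chr10:5639218-5647617), Cck (chr9:121489824-121495694), Penk (chr4:4133531-4138819), Tac1 (chr6:7554879-7565834), Pnoc (chr14:65400673-65425472), Grp (chr18:65872820-65886596) and Pdyn (chr2:129686565-129699844). The series holds 7 single-cell RNA libraries made with the 10x 3' kit for a study of oligodendrocyte precursor cells (OPCs), with 1 library per condition. The adult group had 3 libraries from mice at postnatal day 60 (P60), of the whole dorsal cortex, of its grey matter alone and of its white matter. The early postnatal group had 4 libraries, of cortex at P2, P7 and P15 and of the subventricular zone (SVZ) at P7. Cortex pieces took in everything dorsal to the lateral ventricles, so they held grey matter, white matter and the germinal zone under it. The P60 white matter piece held corpus callosum and germinal zone, and the P7 SVZ piece held the dorsal and lateral ventricle walls. All mice were CD1 except those of the P7 SVZ library, which were C57BL/6, so strain and region cannot be told apart there. No mouse was treated. The labels do not say how many animals went into a library, so every p-value measures only the spread between these libraries, which may be technical.

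Neuropeptides are cut from precursors inside the secretory pathway, stored in dense core granules and released to act on G protein-coupled receptors. In cortex, most of the 9 genes are known from GABAergic interneurons, where Sst, Vip, Npy and Cck name or mark subtypes. In striatum, Tac1 with Pdyn marks the direct pathway projection neurons and Penk the indirect pathway ones, whereas glia are not commonly thought of as a source.

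After filtering, 20697 cells remained, between 1857 and 4069 per library, with a median of 2791 to 9530.5 unique molecular identifier counts (UMIs, 1 per captured molecule) per cell. The libraries held between 10074763 and 45668007 UMIs over all barcodes. Cells were clustered without the 9 genes and the clusters named from marker genes, which gave for example 2221 excitatory neuron-like, 517 inhibitory neuron-like, 487 striatal neuron-like and 1804 OPC-like cells. Levels below are counts per 1000000 UMIs (CPM) of the cells of 1 class in 1 library added up, with exact 95% Poisson intervals that cover counting error only. Microglia-like cells, which should not make these peptides, served as the level that free RNA in the cell suspension gives. That level was uneven, since microglia-like cells of P7 SVZ held 14.3 CPM of Npy, 15.1 CPM of Sst and 12.6 CPM of Tac1, and those of P15 cortex held 0 of Npy and Tac1. Libraries also differed in make-up and handling: P60 grey matter was 60.6% microglia-like and held 0 excitatory neuron-like cells and 1 inhibitory one. In P7 SVZ, 2132 barcodes were over the mitochondrial limit and were left out. Pairs of libraries shared at most 28 cell barcodes, and P7 SVZ shared 0 or 1 with each of the others.

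**Figure D1:**
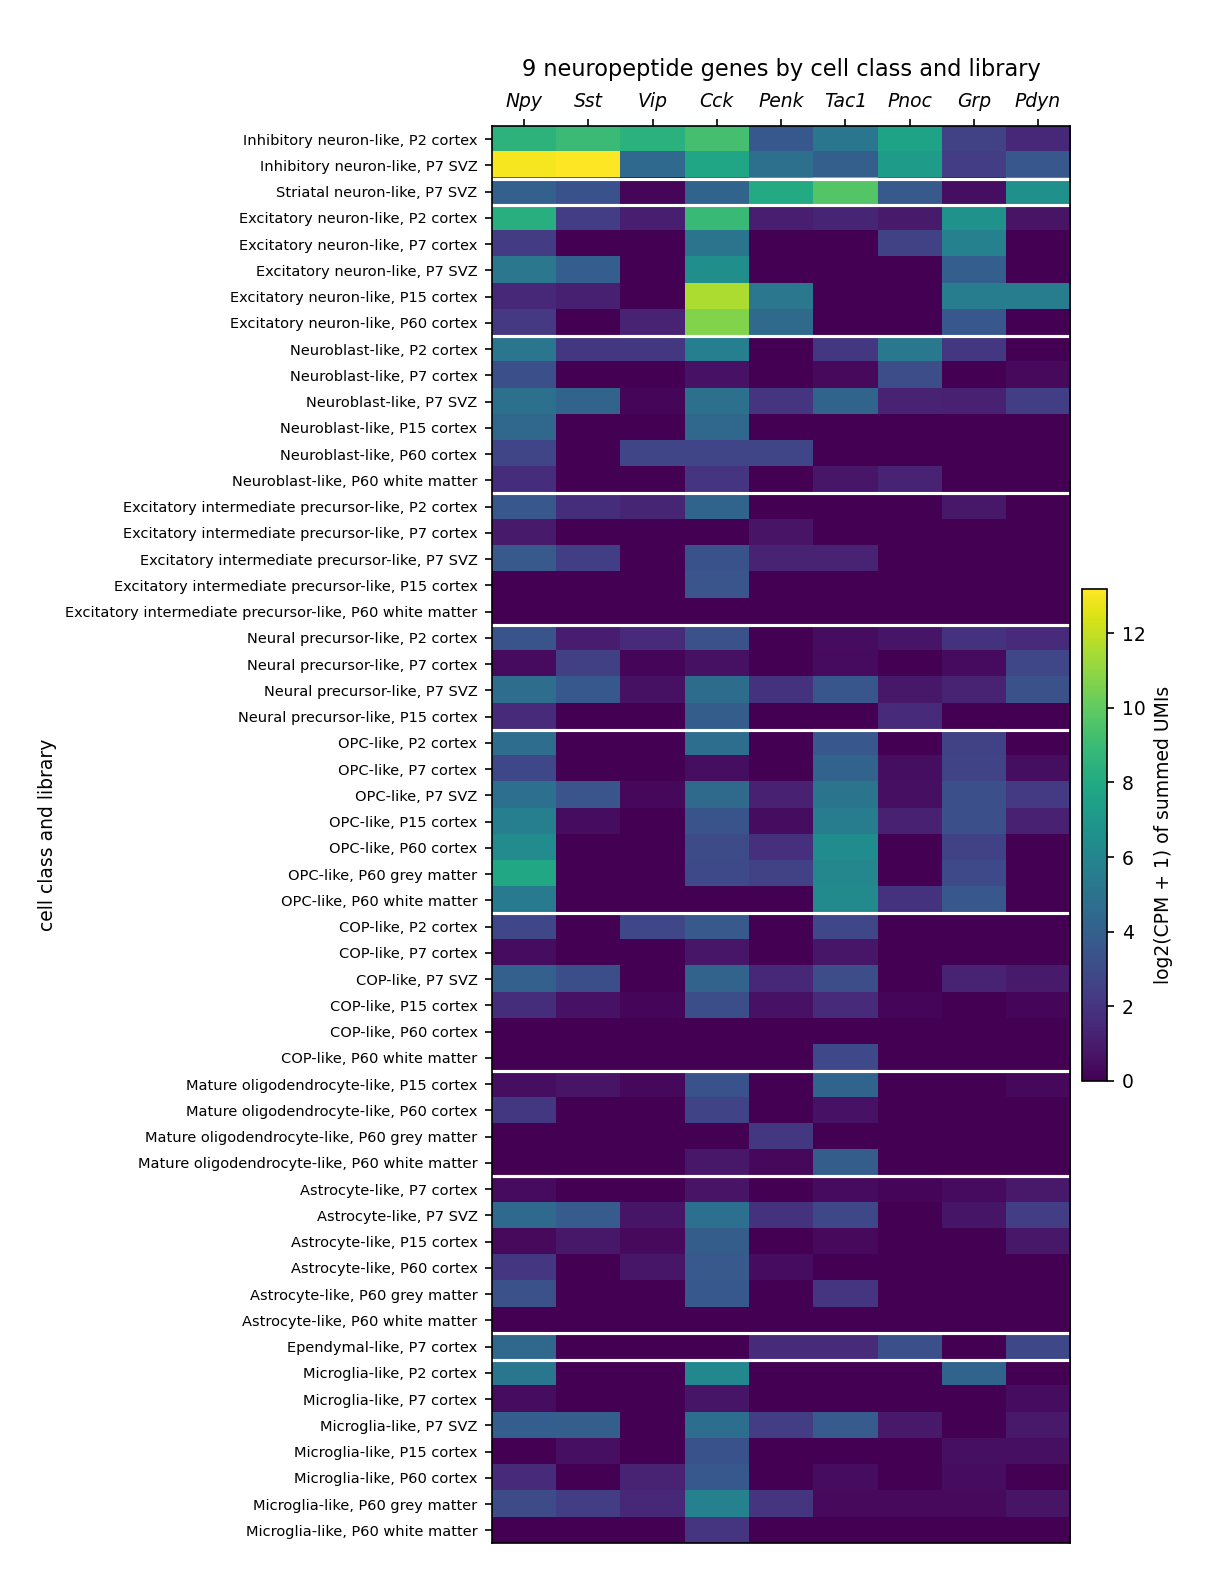
Level of each of the 9 genes, as log2(CPM + 1) on a colour scale, in each class shown and in each library with at least 20 cells of the class. Sst and Vip are brightest in inhibitory neuron-like cells, Tac1, Penk and Pdyn in striatal neuron-like cells of P7 SVZ, Cck in excitatory neuron-like cells of P15 and P60 cortex, and Npy and Tac1 are also bright in OPC-like cells.

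Neurons were set against macroglia in the 5 libraries with at least 20 cells of each, by adding up counts per library. Neurons here are the excitatory, inhibitory and striatal neuron-like cells, and macroglia the astrocyte-, OPC-, committed precursor (COP)- and mature oligodendrocyte-like cells. The neurons were not of the same kinds in each library. In P7 cortex 148 of 159 came from cluster 4, led by the intermediate precursor gene Eomes. In P7 SVZ 481 of 542 were striatal neuron-like. Of the 9 genes, 6 had enough counts to be tested, and 4 of these, Npy, Cck, Penk and Pnoc, were higher in neurons in edgeR's quasi-likelihood test (Benjamini-Hochberg adjusted p under 0.05). None of the 6 was lower. Over all 12509 genes tested, 13.9% were higher and 16.0% lower in neurons, and the median log2 fold change was 4.87 for the 6 genes and -0.06 for all genes. Sst, Vip and Pdyn did not pass the filter on low counts, which asks for counts in several libraries.

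Npy, whose peptide dampens neuronal firing and drives feeding, had 326, 96.5, 493, 26.6 and 299 CPM in neurons of P2 cortex, P7 cortex, P7 SVZ and then P15 and P60 cortex, against 20.7, 1.52, 23.1, 9.86 and 9.12 CPM in macroglia. Neurons were above macroglia in 5 of 5 libraries, and the 2 sets of values did not overlap (log2 fold change 4.11 ± 0.67 SE, adjusted p = 0.0041). Much of the neuronal Npy lay in few inhibitory cells: 1 held all 96 UMIs of that class in P7 cortex, and 1 held 359 of 437 in P60 cortex. Excitatory neuron-like cells alone had 1.84 CPM in P15 and 3.63 CPM in P60 cortex, below macroglia. In P2 cortex, P7 cortex and P7 SVZ they lay above macroglia. Penk, the enkephalin precursor, had 2.72, 0, 251, 55.6 and 39.2 CPM in neurons against 0, 0, 1.73, 0.238 and 0.380 CPM in macroglia of the same libraries. It was at 0 in both in P7 cortex and rose in neurons over the whole fit (log2 fold change 7.11 ± 0.41, adjusted p = 3.0e-04).

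Pnoc, the precursor of nociceptin, gave the evenest neuronal values of the 9 genes, with 30, 15.4, 19.9, 23.7 and 18.9 CPM in neurons against 0, 0.169, 0.247, 0.297 and 0 CPM in macroglia (log2 fold change 6.53 ± 0.49, adjusted p = 3.3e-04). Cck, whose peptide serves as a transmitter in forebrain, had 495, 50.2, 30.9, 3007 and 1646 CPM in neurons against 22.9, 0.591, 21.9, 9.86 and 8.74 CPM in macroglia. It was higher in neurons in all 5 libraries (log2 fold change 5.62 ± 1.26, adjusted p = 0.0145). Grp, encoding gastrin-releasing peptide, had 92.2, 52.1, 0.867, 44.0 and 10.1 CPM in neurons against 3.69, 1.27, 5.19, 1.49 and 0.380 CPM in macroglia. Macroglia were above neurons in P7 SVZ alone, and the difference was not called (log2 fold change 3.75 ± 1.21, adjusted p = 0.0533); without P7 SVZ it was 4.77 with adjusted p = 0.00117. The P7 SVZ values of Cck and Grp rest on which cells were named as neurons. Cluster 26 stayed unnamed and was not counted, and its 241 P7 SVZ cells held Cck at 1616 CPM and Grp at 120 CPM. Unnamed cells of that library held 752 of its 819 Grp UMIs and had 7 excitatory markers at a summed 1011 CPM, of which Slc17a7 gave 309 CPM, against 903 CPM and 0 in the cells named excitatory.

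Tac1, the precursor of substance P and neurokinin A, did not separate neurons from macroglia. It had 16.0, 0, 740, 0 and 3.38 CPM in neurons against 9.59, 3.80, 21.2, 14.2 and 6.65 CPM in macroglia of the same 5 libraries. Macroglia stood above neurons in P7, P15 and P60 cortex, and neurons far above macroglia in P7 SVZ (log2 fold change -0.26 ± 1.497, adjusted p = 0.917, with a sign that turned under 6 of 12 alternative settings). Among the 3 untested genes, Sst, whose peptide inhibits hormone and transmitter release, had 78.0, 0, 544, 115 and 0 CPM in neurons. It was at 0 in neurons of P7 and P60 cortex. Macroglia had 0, 0, 10.1, 0.594 and 0 CPM of Sst, and microglia-like cells of P7 SVZ had 15.1 CPM. In P7 SVZ, 5 of 542 neurons held 98.3% of the neuronal Sst UMIs, and in P15 cortex 1 cell held 196 of 198. Vip, which encodes vasoactive intestinal peptide, had 51.8, 0, 1.36, 31.8 and 276 CPM in neurons against 1.48, 0, 0.247, 0.178 and 0.380 CPM in macroglia of the 5 libraries, and was at 0 in both in P7 cortex. Pdyn, the dynorphin precursor, had 0.810, 0, 92.1, 52.1 and 0 CPM in neurons against 0, 0.591, 3.09, 0.534 and 0 CPM in macroglia, and was high in neurons of P7 SVZ and P15 cortex.

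Inhibitory neuron-like cells could be compared with excitatory neuron-like cells in the 2 libraries that held at least 20 of each, P2 cortex (455 against 1794 cells) and P7 SVZ (33 against 28). Of the 8 genes tested, Sst, Vip, Pnoc and Tac1 were higher in inhibitory cells and none was lower. The background was 1.0% of 10354 genes higher and 0.280% lower. Sst had 509 CPM in P2 cortex and 9367 CPM in P7 SVZ in inhibitory cells, against 4.32 and 14.6 CPM in excitatory cells (log2 fold change 7.64 ± 0.78, adjusted p = 0.00255). Vip had 347 and 21.7 CPM in inhibitory cells against 1.17 and 0 CPM in excitatory cells (8.16 ± 0.76, adjusted p = 0.00207). Pnoc had 199 and 156 CPM in inhibitory cells against 0.907 and 0 CPM in excitatory cells (7.75 ± 0.70, adjusted p = 0.00207). Inhibitory cells exceeded excitatory cells in both libraries for Sst and Pnoc, and in P2 cortex for Vip. In P7 SVZ all 10 Vip UMIs came from 1 of the 33 inhibitory cells. The 0 of excitatory cells there had an upper limit of 26.9 CPM, so Vip was not shown to be higher in that library. With library not used as a block, Vip missed the threshold (adjusted p = 0.0627) and so did Tac1.

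Tac1 was the smallest of the 4 called differences, at 35.3 and 15.2 CPM in inhibitory cells against 1.56 and 0 CPM in excitatory cells. It rested on few counts, and its adjusted p of 0.0287 became 0.0566 with DESeq2 and 0.0863 without the block. Npy was at 364 and 8367 CPM in inhibitory cells against 320 and 36.4 CPM in excitatory cells, and did not pass the test (log2 fold change 3.45, adjusted p = 0.9997); in P2 cortex the 2 classes were nearly level. It was called by DESeq2 (3.85, adjusted p = 0.0168) and with no filter on low counts (3.48, adjusted p = 0.0038), but not with RLE scaling (adjusted p = 0.954) or without the block (adjusted p = 0.344). Cck was likewise not called, with 632 and 223 CPM in inhibitory cells against 473 and 94.7 CPM in excitatory cells. In P7 SVZ, 26 of the 28 excitatory cells came from cluster 4, led by the intermediate precursor gene Eomes, and Slc17a7 was at 0. Unnamed cluster 26, with 241 cells of that library, was left out. It held Cck at 1616 CPM, Npy at 135 CPM and Grp at 120 CPM, and how naming it would change this comparison was not tested. Grp pointed to excitatory cells, with 4.79 and 4.34 CPM in inhibitory cells against 107 and 14.6 CPM in excitatory cells, and just missed the threshold (log2 fold change -4.02 ± 0.79, adjusted p = 0.051, called by DESeq2 with adjusted p = 0.0318).

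The 455 inhibitory neuron-like cells of P2 cortex fell into 2 clusters, and the peptide genes divided along them even though they had no part in the clustering. Cluster 9, led by Lhx6, a factor of interneurons from the medial ganglionic eminence, had 258 of the cells with Sst at 864 CPM, Npy at 603 CPM and Tac1 at 60.1 CPM. Cluster 11, led by Crh and Adarb2, the second a marker of caudal eminence interneurons, had 197 cells with Vip at 841 CPM, Cck at 1418 CPM and Pnoc at 410 CPM. Npy was at 23.8 CPM in cluster 11, and Cck at 78.9 CPM and Pnoc at 51.5 CPM in cluster 9. Clusters are given as a description, since many genes that go with the peptides shaped them.

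Single cells showed which genes were found together. Of the 47 P2 inhibitory cells with at least 3 Sst UMIs, 26 also had at least 3 Npy UMIs, which is 55.3% of the Sst cells and 43.3% of the 60 Npy cells. Among cells without Sst at that level, 8.33% had Npy. None of the 48 Vip cells had Sst or Npy at that level, while 27 of them (56.3%) had Pnoc, against 20.6% of the cells without Vip. Cck was found in 15 of the Vip cells (31.3%) and in 24.6% of the cells without Vip. Prox1, a factor of caudal eminence interneurons that was not used to name classes, was found in 93.8% of Vip cells against 26.0% of the other inhibitory cells. Cort, a peptide gene related to Sst, was found in 23.4% of Sst cells against 7.35% of the others. Cells with Sst were also deeper, with a median of 14141 UMIs against 7982.5 UMIs in those without, and the part of depth in these shares was not tested.

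**Figure D2:**
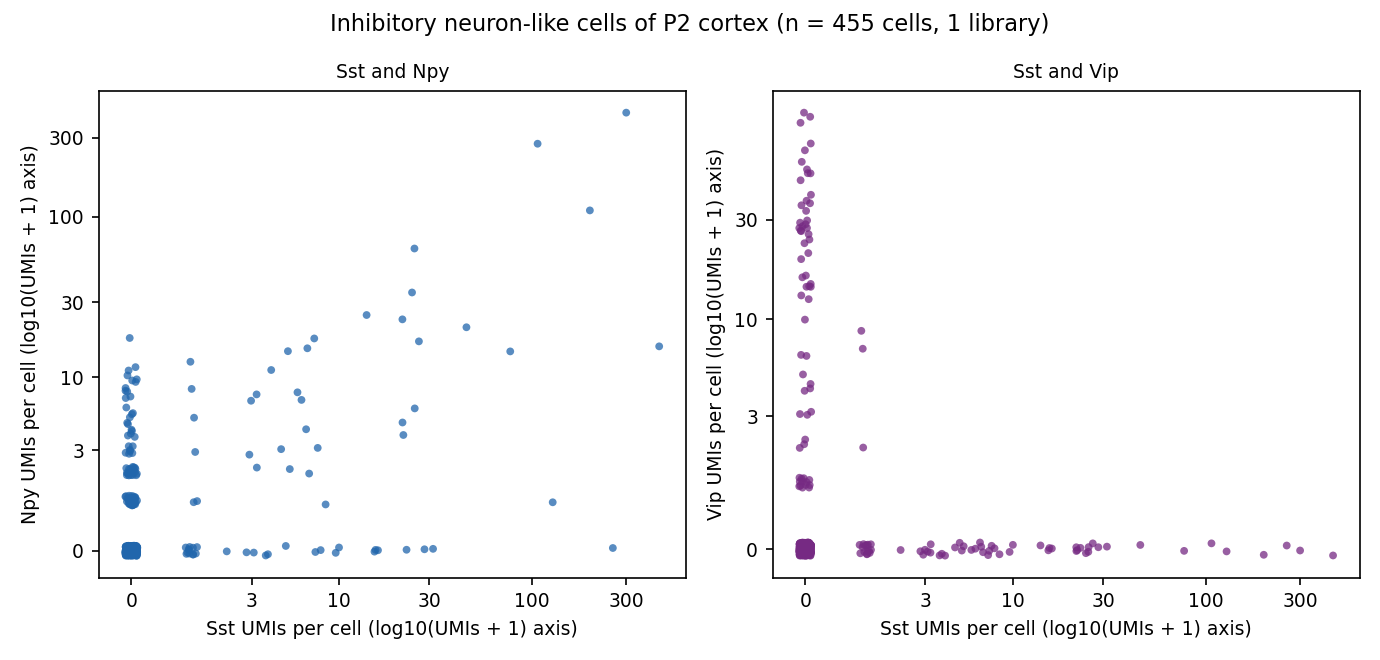
UMIs per cell in the 455 inhibitory neuron-like cells of P2 cortex, with Sst on the horizontal axis and Npy (left) or Vip (right) on the vertical axis, both on log10(UMIs + 1) axes, 1 point per cell with a small random shift. Sst and Npy are high together in a set of cells (26 with at least 3 UMIs of each), whereas Sst and Vip lie along the 2 axes, with 0 cells having 3 or more of both.

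The start regions of Sst, Npy and Vip are shown because these genes split the interneurons. They are given from 250 bases before to 50 bases after the start, on the gene's strand, from RefSeq on GRCm38.p6, where Sst lies at chr16:23890795-23891094 (minus strand), Npy at chr6:49822460-49822759 (plus strand) and Vip at chr10:5638968-5639267 (plus strand). Capitals mark matches to the cyclic AMP response element TGACGTCA, its half-site TGACG on either strand (2 of which lie inside 1 full element) and the TATA box TATAAA.
Sst: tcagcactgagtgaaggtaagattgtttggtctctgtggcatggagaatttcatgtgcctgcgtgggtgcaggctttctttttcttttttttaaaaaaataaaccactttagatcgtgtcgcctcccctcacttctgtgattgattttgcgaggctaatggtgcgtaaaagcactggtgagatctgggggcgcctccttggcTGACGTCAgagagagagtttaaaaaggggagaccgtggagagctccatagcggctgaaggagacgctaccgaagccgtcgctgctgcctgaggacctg
Npy: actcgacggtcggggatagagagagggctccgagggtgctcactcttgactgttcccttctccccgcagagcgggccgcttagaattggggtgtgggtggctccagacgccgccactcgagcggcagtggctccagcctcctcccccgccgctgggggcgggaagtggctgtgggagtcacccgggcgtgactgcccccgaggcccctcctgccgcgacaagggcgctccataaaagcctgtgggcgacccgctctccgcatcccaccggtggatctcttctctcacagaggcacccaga
Vip: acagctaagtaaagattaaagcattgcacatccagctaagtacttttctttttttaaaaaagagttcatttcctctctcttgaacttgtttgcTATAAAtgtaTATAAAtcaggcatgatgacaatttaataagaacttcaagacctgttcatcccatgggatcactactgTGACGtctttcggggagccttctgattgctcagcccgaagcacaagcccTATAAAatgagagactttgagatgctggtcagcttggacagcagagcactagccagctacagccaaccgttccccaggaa
The Sst window had 1 full element, which 1.79% of 32851 mouse promoter windows of 300 bases hold on either strand. The half-site is in 20.8% of windows and was found once in Vip, and TATAAA is in 13.6% and was found 3 times in Vip. Npy had none of these letters in its window, nor of TGANTCA (7.81% of windows) or CAGCTG (16.3%). A match is a string of letters and not a shown binding site.

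Sst and Npy RNA of inhibitory neuron-like cells lay in few cells. In P2 cortex, 5 of the 455 cells held 65.6% of the Sst UMIs and 62.9% of the Npy UMIs of the class. In P7 SVZ, 5 of the 33 inhibitory cells held 99.9% of the Sst UMIs and 99.1% of the Npy UMIs of that class, and all 5 cells with at least 3 Sst UMIs also had at least 3 Npy UMIs. The highest had 1466 Sst UMIs, 4.51% of all its molecules. In P60 cortex, 17 inhibitory cells were found, and 12 of them held Vip, each with at least 3 UMIs and together 406 UMIs. Sst was at 0 in those 17 cells, Npy had 437 UMIs of which 359 came from 1 cell, and Penk was found in 9 cells. In P15 cortex 1 of 6 inhibitory cells held all 196 Sst UMIs of the class, and in P7 cortex 1 of 5 held all 96 Npy UMIs. Fewer interneurons of a type recovered and less RNA per cell cannot be told apart in any sum over a library.

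Striatal neuron-like cells came almost all from P7 SVZ, where they were 481 cells or 13.1% of the library. In them Tac1 was at 798 CPM (778 to 819), Penk at 269 CPM and Pdyn at 98.8 CPM. Tac1 and Penk lay in different cells. At least 3 UMIs of Tac1 were found in 209 cells and of Penk in 134 cells, 0 cells had both, and 138 cells (28.7%) had neither at that level. Of the 114 cells with Pdyn, 107 had Tac1 (93.9%, or 51.2% of the Tac1 cells) and 0 had Penk.

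The dopamine receptor and other genes of these cells divided the same way. Drd1, the receptor of the direct pathway, was found in 98.1% of Tac1 cells and in 8.09% of the cells without Tac1. Adora2a and Drd2, genes of the indirect pathway, were found in 1.91% and 2.39% of Tac1 cells, and in 100% and 81.3% of Penk cells. These 3 genes are class markers and took part in naming the class, but not in choosing the peptide cells. Isl1, a factor of direct pathway neurons that was no class marker, was found in 83.7% of Tac1 cells against 6.99% of the cells without Tac1, and in 0.746% of Penk cells against 55.6% of the cells without Penk. Median depth was 17364 UMIs in Tac1 cells and 14234.5 UMIs in the cells without.

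**Figure D3:**
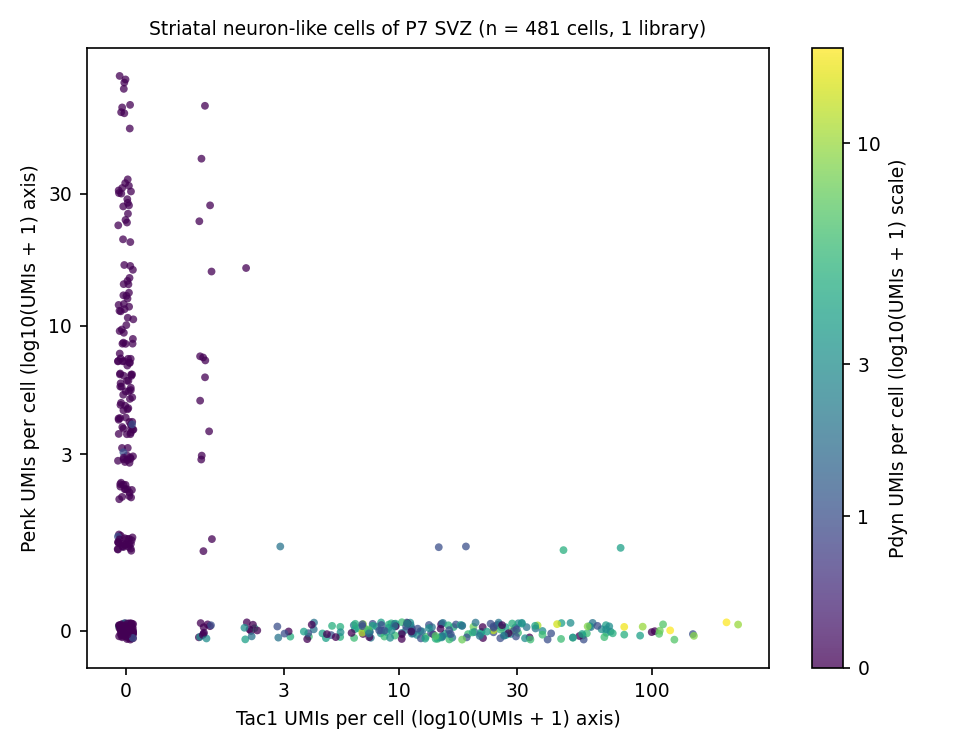
UMIs of Tac1 (horizontal axis) and Penk (vertical axis) per cell in the 481 striatal neuron-like cells of P7 SVZ, both on log10(UMIs + 1) axes with a small random shift, with each point coloured by its Pdyn UMIs. The 209 cells with at least 3 Tac1 UMIs and the 134 with at least 3 Penk UMIs lie along different axes, 0 cells have 3 or more of both, 138 lie near the origin with fewer than 3 of each, and the cells with Pdyn lie along the Tac1 axis.

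The start region of Tac1, the gene that links striatal neurons with the OPC-like cells described next, lies at chr6:7554811-7555110 (plus strand, GRCm38.p6, RefSeq), with capitals on the half-site TGACG, read on the other strand.
Tac1: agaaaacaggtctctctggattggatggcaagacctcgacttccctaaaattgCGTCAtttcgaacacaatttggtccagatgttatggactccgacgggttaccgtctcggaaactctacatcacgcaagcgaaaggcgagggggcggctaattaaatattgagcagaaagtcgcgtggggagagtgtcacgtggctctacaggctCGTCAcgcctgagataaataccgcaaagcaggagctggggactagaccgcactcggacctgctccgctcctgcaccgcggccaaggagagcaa
It held the half-site 2 times and no full element.

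Tac1 and Npy RNA was also found in OPC-like cells, the dividing glial cells marked by Pdgfra that form oligodendrocytes. Tac1 in OPC-like cells was at 32.3 CPM in P7 SVZ, at 10.8, 17.1, 47.2 and 84.0 CPM in P2, P7, P15 and P60 cortex, at 79.9 CPM in P60 white matter and at 67.9 CPM in P60 grey matter. All 3 adult libraries lay above all 4 early postnatal ones, with 77.2 ± 8.4 CPM in adult and 26.8 ± 16.3 CPM in early postnatal libraries (SD, n = 3 and 4). Microglia-like cells held 0 Tac1 UMIs in P2, P7 and P15 cortex and in P60 white matter, 0.346 CPM in P60 cortex and 0.253 CPM in P60 grey matter. P2 cortex had 25 microglia-like cells, and its 11 Tac1 UMIs in OPC-like cells were not shown to lie above free RNA (lower limit of the ratio 0.554). In P7 SVZ, where free RNA was high, OPC-like cells were 2.56-fold (1.502 to 4.69) above microglia-like cells. OPC-like cells held 93.2% of all Tac1 UMIs of P60 grey matter with 6.52% of its cells, 82.9% in P60 cortex with 3.49% and 82.0% in P7 cortex with 7.50%. The share was 59.0% in P15 cortex, 28.7% in P60 white matter, 2.25% in P7 SVZ and 1.80% in P2 cortex.

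The adult and early postnatal OPC-like cells were then compared in edgeR over 9716 genes, of which 6.71% were called in either direction. Of the 2 genes tested, 0 were called, though both had an unadjusted p under 0.05 and DESeq2 called 1. Over all 9716 genes, 2157 had an unadjusted p under 0.05 and DESeq2 called 818. For Tac1 the log2 fold change was 1.29 ± 0.37 (adjusted p = 0.0566), with a range over the alternatives of 1.09 to 1.62 and adjusted p from 0.00638 to 0.178. It was called by DESeq2 (adjusted p = 0.0181), with no filter on low counts, and without P15 cortex (adjusted p = 0.00899). In single libraries, Tac1 was 7.75-fold (3.83 to 16.9) higher in P60 than in P2 cortex and 1.78-fold (1.19 to 2.60) higher in P60 than in P15 cortex. White matter and grey matter at P60 did not separate (ratio 1.18, 0.705 to 1.94). The share of OPC-like cells with a Tac1 UMI was 22.4%, 23.97% and 28.4% in P60 cortex, grey and white matter, and 6.41%, 11.8%, 21.6% and 23.9% in P2 cortex, P7 cortex, P7 SVZ and P15 cortex. With each cell thinned to 2000 UMIs the shares were 9.89%, 13.5% and 11.7% in the adult libraries, against 0.658%, 2.68%, 7.59% and 9.38% in the early postnatal ones.

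Npy was spread more unevenly over OPC-like cells. It was at 27.2 CPM in P7 SVZ, at 25.6, 6.25, 50.5 and 81.5 CPM in P2, P7, P15 and P60 cortex, at 41.3 CPM in P60 white matter and at 240 CPM (203 to 282) in P60 grey matter. Adult libraries averaged 121 ± 105 CPM and early postnatal ones 27.4 ± 18.1 CPM (SD, n = 3 and 4), and the groups overlapped, since P60 white matter lay below P15 cortex. The difference was not called (log2 fold change 2.01 ± 0.57, adjusted p = 0.0541, with adjusted p from 7.0e-05 to 0.433 over the alternatives, and 0.0138 without P15 cortex). White matter had 0.172 of the grey matter level at P60 (0.0939 to 0.293), and P7 SVZ had 4.35-fold (2.54 to 8.01) the level of P7 cortex, each with 1 library a side. Free RNA differed between the P7 libraries too, with Npy in microglia-like cells at 14.3 CPM in P7 SVZ and 0.333 CPM in P7 cortex. Its part in the ratio of OPC-like cells was not tested.

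Against free RNA, Npy in OPC-like cells stood apart in most libraries but not in P2 cortex. The ratio over microglia-like cells was 39.3 (16.2 to 115) in P60 cortex, 34.5 (25.1 to 47.9) in P60 grey matter, 1.91 (1.14 to 3.38) in P7 SVZ and 0.717 (0.315 to 1.83) in P2 cortex, and microglia-like cells had 0 UMIs in P15 cortex and P60 white matter. At least 1 Npy UMI was found in 54.5% of OPC-like cells of P60 grey matter, with a highest count of 8 per cell, and in 2.93% of its microglia-like cells at medians of 5348 and 7161 UMIs. OPC-like cells held 70.4% of all Npy UMIs of P60 grey matter, 83.3% of P60 white matter and 66.8% of P15 cortex. Those libraries held only 1, 0 and 6 inhibitory neuron-like cells, and the white matter share rests on 15 UMIs of OPC-like cells. OPC-like cells held 6.57% in P60 cortex, where 17 inhibitory neuron-like cells held 87.1%. In P2 cortex, P7 cortex and P7 SVZ they held 0.290%, 8.98% and 2.31%. Such shares depend on which cells were recovered. COP-like cells of P15 cortex held less, with 2.25 CPM of Npy and 2.07 CPM of Tac1. Mature oligodendrocyte-like cells there had 18.1 CPM of Tac1. Astrocyte-like cells of P60 grey matter had 8.67 CPM of Npy, from 3 UMIs. In P7 SVZ the classes lay closer, with Npy at 21.8 CPM in astrocyte-like and 15.2 CPM in COP-like cells. Their ratios over microglia-like cells were 1.53 (0.820 to 2.94) and 1.07 (0.574 to 2.05). Neuroblast-like cells there had 28.7 CPM, a ratio of 2.01 (1.22 to 3.54). Neural precursor-like cells had 25.7 CPM, a ratio of 1.80 (1.09 to 3.16). OPC-like cells, at 27.2 CPM, did not stand out from these classes in that library.

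**Figure D4:**
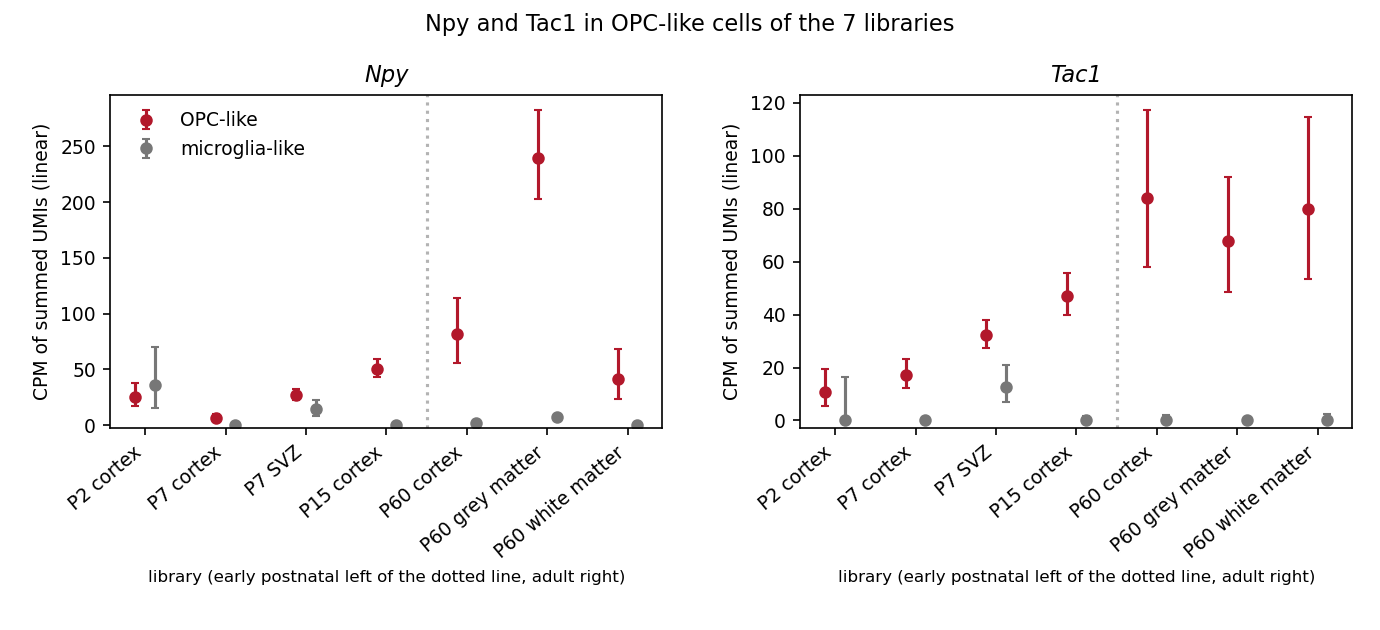
Levels of Npy and Tac1 (CPM, linear axis, with exact 95% Poisson intervals as bars) in OPC-like and in microglia-like cells of each library, in order of age. Tac1 in OPC-like cells lies between 67.9 and 84.0 CPM in the adult libraries and between 10.8 and 47.2 CPM in the early postnatal ones, while Npy reaches 240 CPM in P60 grey matter and overlaps between the groups.

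Other signals also differed between libraries in the OPC-like cells, the first of them with overlap between the stages. The summed level of 10 genes of dissociation stress and activity was 1049, 5704 and 1714 CPM in P60 cortex, grey and white matter, against 748, 578, 1373 and 360 CPM in P2 cortex, P7 cortex, P7 SVZ and P15 cortex, and 2 of the 7 tested genes of that list, Nr4a1 and Hspa1a, rose in adult libraries (2 genes named after their values were seen). The summed level of 8 microglia markers in OPC-like cells was 304, 1089 and 116 CPM in those adult libraries, against 11.8, 80.5, 17.8 and 108 CPM in the early ones. P60 grey matter was highest in both sums and in Npy, and their part in the result was not tested. Y-linked genes summed to at most 0.0961 CPM over whole adult libraries and to at least 103 CPM over early postnatal ones, so sex and stage cannot be told apart. Leaving out the 2 clusters of dividing OPC-like cells, a choice made after seeing the data, gave 86.7, 69.0 and 80.6 CPM of Tac1 in the adult and 10.9, 19.8, 36.2 and 54.2 CPM in the early libraries, again with 0 genes called.

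The stage difference of OPC-like cells was set against that of astrocyte-like cells by an interaction term. It was called for 0 of 3 genes tested, with 0.536% of 10634 genes called, 0 of the 3 at an unadjusted p under 0.05 and 0 by DESeq2. Npy had an interaction of 1.88 on the log2 scale (adjusted p = 0.541), which became 3.37 with adjusted p = 0.00444 without P15 cortex and -1.29 without P7 SVZ. Tac1 had 3.09 (adjusted p = 0.439). Grp, below the filter in OPC-like cells, was at 4.94, 6.62 and 11.0 CPM in P60 cortex, grey and white matter, against 4.93, 5.42, 8.35 and 8.36 CPM in P2 cortex, P7 cortex, P7 SVZ and P15 cortex, each resting on 2 to 38 UMIs.

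The same stage test gave 0 calls among these genes in every other class. The background was 0.0289% of genes in astrocyte-like cells (1 of the 9 genes tested), 0.0224% in neuroblast-like cells (2 tested), 0.0323% in COP-like cells (1 tested), 0.0314% in microglia-like cells (2 tested) and 0% in pericyte- and smooth muscle-like cells (none of the 9 tested). Only the neuroblast-like fit had 1 of these genes with an unadjusted p under 0.05, against 489 of all 8922 genes there. DESeq2 called 0 of these genes in all 5 classes. All 5 fits called few genes of any kind.

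Tac1 was also found in some mature oligodendrocyte-like cells. They had 14.1 CPM in P60 white matter and 18.1 CPM in P15 cortex, but 0.561 CPM in P60 cortex and 0 in P60 grey matter. In P60 white matter most of it lay in cluster 31, led by Mog, Mobp and Opalin, where 45 cells had 121 CPM (91.8 to 157) and 28.9% of cells had a UMI. Microglia-like cells had 0 Tac1 UMIs in both P15 cortex and P60 white matter. Mature oligodendrocyte-like cells held 67.3% of all Tac1 UMIs in P60 white matter and 36.0% in P15 cortex.

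Excitatory neuron-like cells carried Cck, Grp and, at P2, Npy, with a different order over age for each. The cells compared are not of 1 kind: clusters 3, 4 and 8 held those of P2 cortex, cluster 4, led by the intermediate precursor gene Eomes, those of P7 cortex, and cluster 41 those of P15 and P60 cortex, nearly all in each case. Cck was at 473, 32.4, 3064 and 1672 CPM in P2, P7, P15 and P60 cortex. P60 cortex had 3.53-fold (3.38 to 3.70) the Cck of P2 cortex and 0.546-fold (0.519 to 0.573) that of P15 cortex. Grp was at 107, 54.7, 46.6 and 10.9 CPM, so P60 cortex had 0.101 of the P2 level (0.0566 to 0.167). Npy was at 320, 4.06, 1.84 and 3.63 CPM, high at P2 alone. Penk was at 1.12, 0, 36.2 and 22.5 CPM, and Pdyn at 0.648, 0, 47.9 and 0 CPM. Each age had 1 library, so there is no replicate check on these orders.

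Within P2 the excitatory clusters differed. Npy was at 795 CPM in cluster 8, with a UMI in 57.0% of cells, and at 111 CPM in cluster 3. Grp was at 167 CPM in cluster 8, 77.3 CPM in cluster 3 and 91.8 CPM in cluster 4, and Cck at 516, 474 and 320 CPM. Of 298 P2 excitatory cells with at least 3 Npy UMIs, 23.8% had at least 3 Grp UMIs, against 13.4% of those without. A further set, cluster 26, stayed unnamed: 241 of its 246 cells came from P7 SVZ, and Cplx3, Rprml and Hs3st4 led it. It held Cck at 1616 CPM, Npy at 135 CPM and Grp at 120 CPM, all above the microglia-like cells of that library.

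**Figure D5:**
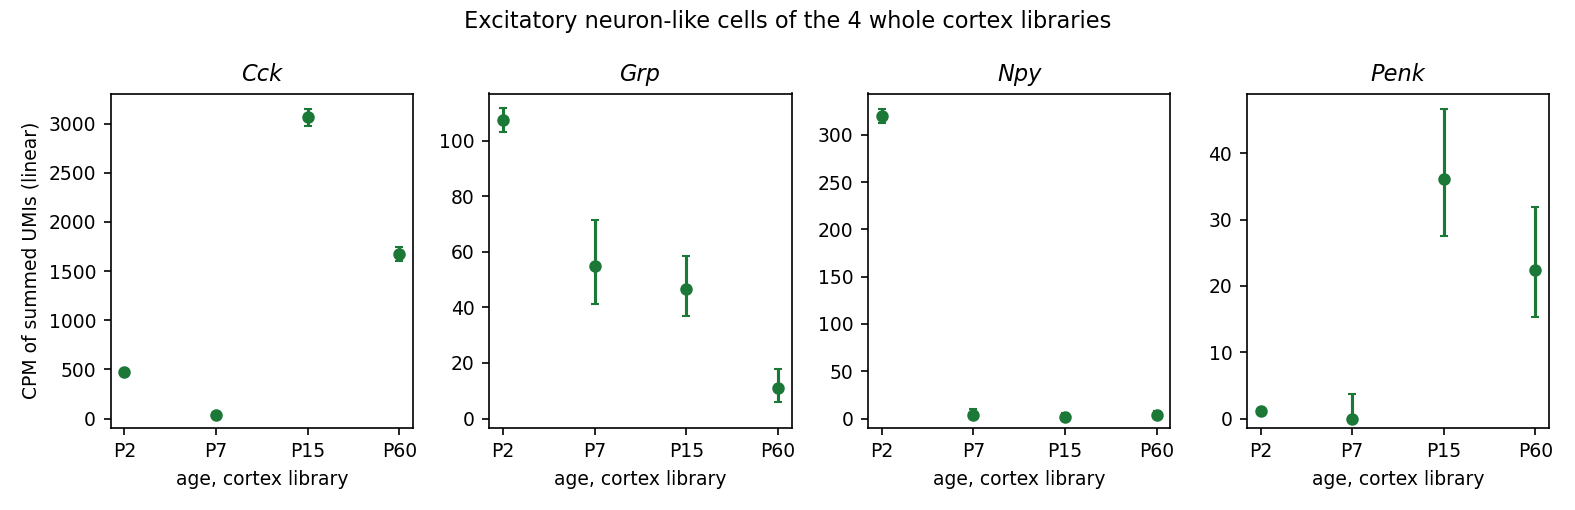
Levels of Cck, Grp, Npy and Penk (CPM, linear axes, with exact 95% Poisson intervals as bars) in excitatory neuron-like cells of P2, P7, P15 and P60 cortex, 1 library per age. Cck is highest at P15 (3064 CPM), Grp at P2 (107 CPM), Npy at P2 (320 CPM) and Penk at P15 (36.2 CPM).

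Cck also appeared in microglia-like cells of P60 grey matter, at 54.3 CPM (49.3 to 59.7), with a UMI in 19.1% of 1125 cells. In the same library OPC-like cells had 6.62 CPM, astrocyte-like cells 11.6 CPM, border macrophage-like cells 22.0 CPM and mature oligodendrocyte-like cells 0. Microglia-like cells of the other adult libraries had 11.4 CPM in P60 cortex and 3.14 CPM in P60 white matter. Markers of excitatory neurons moved with it: 7 of them summed to 47.4 CPM in the grey matter microglia-like cells, of which Slc17a7 gave 40.7 CPM and 1 was at 0, against 0 CPM in OPC-like and 5.78 CPM in astrocyte-like cells. Their part in the Cck level was not tested. No ratio of Cck over microglia-like cells of this library is given here. Those cells also held Npy at 6.97 CPM, Sst at 4.31 CPM, Penk at 3.17 CPM and Vip at 1.77 CPM. Their Npy level was the free RNA level used above for OPC-like cells of P60 grey matter.

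Precursor-like cells held low levels of these genes. Npy in neural precursor-like cells was at 9.68, 0.329 and 2.01 CPM in P2, P7 and P15 cortex and at 25.7 CPM in P7 SVZ, where the ratio over microglia-like cells was 1.80 (1.09 to 3.16); in P2 cortex it was 0.271 (0.120 to 0.688). In neuroblast-like cells, the migrating young neurons, Npy was at 5.73 CPM in P60 cortex and 2.27 CPM in P60 white matter, against 35.0, 8.29, 28.7 and 20.3 CPM in P2 cortex, P7 cortex, P7 SVZ and P15 cortex. The ratio over microglia-like cells was 0.979 (0.417 to 2.56) in P2 cortex, 24.9 (4.14 to 1015) in P7 cortex and 2.01 (1.22 to 3.54) in P7 SVZ. The stage difference was not called (log2 fold change -3.0 ± 0.92, adjusted p = 0.846), and the adult values rested on 1 and 3 UMIs. Sst in neural precursor-like cells of P7 SVZ was 0.757-fold (0.446 to 1.35) the microglia-like level, and in P7 cortex 27 of its 28 UMIs came from 1 cell. Pdyn in neural precursor-like cells was at 8.51 CPM in P7 SVZ, 10.1-fold (1.74 to 407) over microglia-like cells, and at 6.09 CPM in P7 cortex. Pnoc in neuroblast-like cells was at 38.3 CPM in P2 cortex and 7.74 CPM in P7 cortex.

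Over whole libraries all 9 genes could be tested and 0 were called between adult and early postnatal, against 0.0319% of 15670 genes. An unadjusted p under 0.05 was found for 4 of the 9, and DESeq2 called 4. Over all 15670 genes, 2918 had an unadjusted p under 0.05 and DESeq2 called 1328. Grp was at 1.73, 0.573 and 0.615 CPM in P60 cortex, grey and white matter, against 72.8, 2.78, 22.3 and 4.38 CPM in P2 cortex, P7 cortex, P7 SVZ and P15 cortex, without overlap (log2 fold change -4.69, adjusted p = 0.202). Vip was at 39.99, 1.34 and 0 CPM in the adult libraries against 43.0, 0.0316, 0.464 and 2.49 CPM in the early ones. Excitatory neuron-like cells made up 4.67%, 0% and 0.356% of the cells of P60 cortex, grey and white matter, against 55.3%, 3.78%, 0.765% and 3.35% in P2 cortex, P7 cortex, P7 SVZ and P15 cortex, and their part in the result was not tested.

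Genes that make, release and receive peptides were read from lists in the comparison of neurons with macroglia. Of 17 processing and granule genes, 16 were tested, 12 were higher in neurons and 0 lower, with a median log2 fold change of 2.23 against -0.06 for all genes. The largest were Vgf (5.88), Scg2 (5.34) and Syt4 (5.07), of granule contents and granule fusion, then Chgb (3.395), the convertase gene Pcsk2 (2.79), Rab3a (2.71), Ptprn2 (2.65) and Ptprn (2.24). Of 20 receptor genes, 5 were tested: Sstr2 (6.68), a somatostatin receptor, Npy1r (6.35), a receptor of neuropeptide Y, and Oprl1 (2.24), the nociceptin receptor, were higher in neurons, and Adcyap1r1 (-1.76), the receptor of PACAP, was lower. Npy1r averaged 27.5 ± 17.6 CPM in neurons and 0.287 ± 0.471 CPM in macroglia (SD, n = 5 each).

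Among 19 other genes for secreted precursors, 8 were tested. Nts (log2 fold change 7.11), Tac2 (5.86) and Cbln1 (2.86) were higher in neurons, and Adm (-3.33), the adrenomedullin precursor, was lower. Of 18 interneuron genes, 14 were tested, and Nos1 (5.96), Lhx6 (5.03), Reln (4.34), Maf (2.61) and Adarb2 (1.99) were higher while Sox6 (-4.47), a factor that OPCs also use, was lower. Of 10 striatal genes, 7 were tested and 5 were higher, among them Drd1 (5.37), Ppp1r1b (3.52), Foxp1 (3.15) and Sp9 (3.04). Several genes of these last lists also named the classes. Of 10 dissociation and activity genes, all 10 were tested, with Npas4 (5.78), an activity gene, higher and Jun (-1.30) lower in neurons.

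The genes whose levels ran most like those of each peptide gene were found by Pearson's r over 65 sums of a class in a library, among 11961 genes. Values are descriptions, as sums share libraries and depth. Sst ran most like Lhx6 (r = 0.73), Amn (0.72) and Crabp1 (0.71). Vip ran most like Lhx6 (0.78), Rpp25 (0.57) and Sh3rf3 (0.56), and Pnoc like Lhx6 (0.77), Crabp1 (0.76) and Slc32a1 (0.65), the vesicular GABA transporter. Npy ran most like Caly (0.76), Cxadr (0.74) and Fbll1 (0.73). Cck ran most like Syt1 (0.80), a synaptic vesicle gene, Golga7b (0.80) and Slc12a5 (0.79), a chloride transporter of neurons. Grp ran most like Neurod6 (0.78), Ckmt1 (0.76) and Neurod2 (0.76), both Neurod genes being factors of excitatory neurons. Tac1 ran most like Asic4 (0.79), Galnt13 (0.73) and Stk32a (0.71), Penk like Cntnap5a (0.81) and Amn (0.79), and Pdyn like Amn (0.74), Dmkn (0.69) and Calb1 (0.67). Lhx6, Slc32a1, Neurod6 and Neurod2 are class markers. Sums do not show which cells of a class hold both genes: in inhibitory neuron-like cells of P2 cortex, Lhx6 was found in 2.08% of Vip cells against 53.6% of the others, and in 11.7% of Pnoc cells against 59.9% of the others.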

How the data were processed

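Single-cell RNA was measured in 7 mouse libraries. Values are the authors' raw counts of UMIs for each gene and cell barcode; per the file headers they come from Cell Ranger 3.0.2, and mm10 is named per the submitters' processing notes. Other filters before deposit are unknown here. From 25747 barcodes, those with under 500 genes (1304), over 10% mitochondrial UMIs (3441) or called doublets per library (scrublet, expected rate 0.06; 305 calls) were left out. Cells were clustered in scanpy 1.11.5 on 2000 variable genes that excluded the 9 genes (30 components, 15 neighbours, Leiden resolution 1.5), which gave 47 clusters. They were named from marker lists, and 6 clusters (930 cells) stayed unnamed.

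Counts were added up per class and library where at least 20 cells were present. Each comparison was fitted over all genes in edgeR 4.0.16 (quasi-likelihood test, TMM scaling, filterByExpr, Benjamini-Hochberg threshold 0.05), with library as a block where both sides came from the same libraries, since a library holds the same animals' cells. DESeq2 1.42.0 and other settings were alternatives, and the procedure was tested on simulated data. Ratios of single libraries carry exact conditional 95% intervals. List genes were named if their adjusted p was under 0.05 in neurons against macroglia, at most 8 per list by size of the change, and the 3 most alike genes per member had a mean of at least 5 CPM; 1 gene that these rules name is not reported here. Intervals cover counting error only. Members and lists were chosen with earlier results of these data known, and partner genes in single cells (such as Drd1, Isl1, Prox1 and Cort) were taken from those lists.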

Additional observations from a re-analysis of the deposited data

Results flagged for a closer look

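Among 52 groups of 4 early postnatal libraries, 17 had a highest library so far from the other 3 that its gap filled over 0.829 of the range. That limit flags about 1 in 20 groups by chance where all 4 values come from 1 normal distribution. These libraries differ in age, region and depth, and the groups share libraries, so the 17 cannot be set against chance. P15 cortex stood apart for Cck in excitatory neuron-like cells (3064 CPM) and in all neurons (3007 CPM), for Pdyn (47.9 CPM) and for Penk (36.2 CPM) in excitatory neuron-like cells. P2 cortex stood apart in excitatory neuron-like cells for Npy (320 CPM), Tac1 (1.56 CPM) and Vip (1.17 CPM), and over the whole library for Pnoc (25.6 CPM) and Vip (43.0 CPM). In excitatory neuron-like cells of the other early libraries, Tac1 and Vip were at 0. The upper limits of that 0 were 3.74 CPM in P7 cortex, 26.9 CPM in P7 SVZ and 2.26 CPM in P15 cortex. All lie above the P2 values of Tac1 and Vip, so a difference was not shown for these 2 genes. P7 SVZ stood apart over the whole library for Pdyn (23.4 CPM), Penk (58.5 CPM) and Tac1 (178 CPM). It did so too for Tac1 in neurons (740 CPM) and neural precursor-like cells (10.6 CPM), Pdyn in neuroblast-like cells (4.42 CPM), and Sst in COP-like (8.09 CPM) and OPC-like cells (10.1 CPM), where microglia-like cells of the library had 15.1 CPM of Sst.

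Clusters that stayed unnamed, and so entered no comparison, also held more peptide RNA than the microglia-like cells of their library. Cluster 16, of 168 cells with a median of 2199 UMIs, raised all 10 striatal markers; it had 319 CPM of Tac1 and 55.8 CPM of Penk in P2 cortex, and 332 CPM of Tac1, 52.3 CPM of Penk, 60.1 CPM of Npy and 107 CPM of Cck in P7 SVZ. Cluster 21, led by Reln, Ndnf and Trp73, had 64.7 CPM of Penk and 74.3 CPM of Pnoc in P7 cortex. Cluster 26 had 1616 CPM of Cck, 135 CPM of Npy and 120 CPM of Grp in P7 SVZ.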

How the results depend on the processing

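Of 101 alternative counts of peptide genes called, 92 stayed within 1.5 times the reported count. With no filter on low counts, 8 genes were called in neurons against macroglia, 7 in inhibitory against excitatory neurons, 2 in OPC-like cells by stage and 1 in neuroblast-like cells by stage. With no replicate block, the paired comparison of inhibitory with excitatory neurons called 2 genes in place of 4. DESeq2 called 1 gene in OPC-like cells (818 of all 9716 genes) and 4 over whole libraries (1328 of all 15670 genes). Leaving out 1 library at a time gave 0 to 2 calls in OPC-like cells and 0 to 1 in the test of OPC-like against astrocyte-like cells, the highest in each case without P15 cortex. In neurons against macroglia it gave 4 to 6. The cause was not tested.

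Single genes gave 310 alternative values, of which 264 kept direction and side of the threshold, 22 passed it anew, 3 no longer passed it (Tac1 with DESeq2, Tac1 and Vip without the block) and 21 changed sign, none of the 21 from a called value. Tac1 in neurons against macroglia (log2 fold change -0.26) ranged from -1.72 to 0.78 when 1 library was left out, and was 0.43 with the 9 genes in the clustering, 0.076 with microglia-like cells added and 3.79 with no replicate block. By stage, Cck in astrocyte-like cells (-0.49) ranged from -1.14 to 0.40 with 1 library left out and was 0.40 with the 9 genes in the clustering. Cck in microglia-like cells (0.47) ranged from -1.38 to 1.26 and was -0.0075 with DESeq2. Vip over whole libraries (0.06) ranged from -3.74 to 3.78 and was -0.043 with DESeq2, -0.035 with RLE scaling and -0.0030 with no filter, and Penk (-2.20) ranged from -2.71 to 0.31. The difference between OPC-like and astrocyte-like cells for Npy (1.88) ranged from -1.29 to 3.37 and was -1.28 with the 9 genes in the clustering.

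Some alternatives gave no fit, namely leaving out P2 cortex or P7 SVZ, the 9 genes in the clustering, and at least 50 cells per sum for inhibitory against excitatory neurons, and at least 50 cells for neuroblast-, COP- and pericyte-like cells. Counts limit precision at both stages: OPC-like cells rest on 15 to 145 Npy UMIs and 29 to 41 Tac1 UMIs per adult library and on 15 to 151 Npy UMIs and 11 to 147 Tac1 UMIs per early postnatal one, and no adult library held 20 inhibitory neuron-like cells.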

Other observations

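Vip RNA lay outside neurons in 1 ependymal-like cell of P2 cortex, which had 72 Vip UMIs of 23898 in all, with 1 Gad1 UMI and 0 of Cck. Grp in P7 SVZ was mostly in unnamed cells, which held 752 of the library's 819 Grp UMIs (91.8%), while OPC-like cells held 38, striatal neuron-like cells 3, and excitatory and inhibitory neuron-like cells 2 each.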
